A study of Mus musculus with 12 samples.

Results

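The genes described here are 10 direct transcriptional targets of p53, chosen by name as a check on Cre toxicity and cell death: Cdkn1a, Mdm2, Ccng1, Aen, Trp53inp1, Bax, Bbc3, Phlda3, Sesn2 and Eda2r. Each name matched 1 row, so they are 10 of the 55357 genes in the count tables, and all 10 had counts above 0 in every library. At E17.5 the cerebral cortex of mouse embryos, dissected together with the hippocampus, was cut into a rostral and a caudal part, from which messenger RNA libraries were made. Knockout embryos (NcreEGFRFF) had both alleles of Egfr, which encodes the EGF receptor, floxed, and carried Nestin-Cre, a transgene with Cre recombinase under a promoter active in neural stem cells and their progeny. Control embryos (EGFRF+) carried 1 floxed and 1 intact allele, and their titles name no Cre, so both genotypes have at least 1 floxed allele. Loss of Egfr and presence of Cre therefore cannot be told apart. Nestin-Cre acts mainly in the neural lineage, to which microglia and vessels do not belong. The cells in which Cre acted were not measured here. The 12 libraries form 4 groups of 3, which are knockout rostral and knockout caudal (titled embryos 5, 2 and 7) and control rostral and control caudal (titled embryos 1, 3 and 9).

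The transcription factor p53 is kept low in unstressed cells by the ubiquitin ligase Mdm2, itself a p53 target, so that the pair forms a feedback loop. DNA damage, including breaks made by Cre recombinase at genomic sites that resemble its own, and other stresses stabilize p53, which then raises genes of cell cycle arrest, repair and apoptosis. In the embryonic cortex the progenitors of neurons are known to be sensitive to this response, and its activation there is a known cause of small brains.

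Total counts ran from 25223733 to 30383672 per library. Egfr stood at 4.87, 3.60 and 6.93 CPM (counts scaled to the library's total) in knockout rostral 5, 2 and 7 against 19.2, 26.0 and 31.1 CPM in control rostral 1, 3 and 9. In the caudal part it stood at 5.69, 7.33 and 6.21 CPM in knockout 5, 2 and 7 against 29.9, 36.8 and 41.6 CPM in control 1, 3 and 9. Every knockout library was below every control library. Other labels were less well borne out. Xist, made from the inactive X chromosome, and Y-linked genes gave the same picture for both parts of 1 titled embryo and different ones for the other 5, at a threshold of 10 CPM. Control rostral 1 and 3 held both kinds, with Xist at 230 and 278 CPM and Y-linked genes at 94.6 and 92.0 CPM in sum. Nr2f1, which encodes a patterning factor with a known rostral-low, caudal-high gradient, ran from 97.1 to 340 CPM in knockout rostral, from 50.7 to 348 CPM in control rostral, from 71.3 to 348 CPM in knockout caudal and from 58.6 to 373 CPM in control caudal libraries, so the labelled parts overlapped in both genotypes. Nr2f1 was higher in the caudal than in the rostral library of 4 titled embryos, and lower in knockout embryo 2 (71.3 CPM caudal, 340 CPM rostral) and control embryo 3 (58.6 CPM caudal, 348 CPM rostral). Markers of cortical neurons summed to 2863 to 3820 CPM in knockout and 3109 to 3808 CPM in control libraries. Mitochondrial transcripts took 7.25% of the counts in knockout rostral 7 and 4.77% in knockout caudal 5, and 1.96% to 3.53% in the other 10. All statements below take the labels as given, so n counts libraries or titled sums, and p-values rest on the spread among them, which may be technical.

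RefSeq promoter windows (GRCm38.p6, 250 bases before to 50 after a start site, so a different build from the GRCm39 coordinates of the counts) were found for 9 of the 10 genes, all but Trp53inp1. They were searched for the p53 half-site consensus, a 10-base motif that reads the same on both strands. Of 32851 windows of all genes 8.36% held a half-site, and 6 of the 13 windows of the 9 genes did, belonging to Cdkn1a, Mdm2, Ccng1, Aen and Bax. Only exact matches to the consensus counted, so near matches are not marked. One of them is tgacatgttc in the Cdkn1a window printed below, which directly follows GAACATGTCT and departs from the consensus at its first base alone. A Cdkn1a window at a different start site, chr17:29093519-29093818 on the plus strand, held 0 half-sites. The other Cdkn1a window is shown because it is 1 of only 24 windows, 0.0731% of all, with 2 half-sites at most 13 bases apart. They are in capitals, begin 73 and 51 bases before the start site and lie 12 bases apart (chr17:29090729-29091028, plus strand):
Cdkn1a: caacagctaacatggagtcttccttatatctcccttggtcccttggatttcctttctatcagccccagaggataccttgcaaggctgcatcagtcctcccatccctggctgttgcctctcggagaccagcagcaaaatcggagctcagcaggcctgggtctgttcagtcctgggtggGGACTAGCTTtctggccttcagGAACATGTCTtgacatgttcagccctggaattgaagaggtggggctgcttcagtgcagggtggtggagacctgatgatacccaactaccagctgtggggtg
The half-sites of the other 4 genes, each the sole one in its window, are given to show how they vary within the bases that the consensus allows:
Mdm2: GAACTTGCCT
Ccng1: GGGCAAGCCT
Aen: GGGCTTGTCC
Bax: AGGCAAGCTT
The windows are chr10:117710709-117711008 for Mdm2, chr11:40755237-40755536 for Ccng1 and chr7:45466849-45467148 for Bax, all on the minus strand, and their sites begin 186, 185 and 201 bases before the start site. That of Aen lies in both of its windows on the plus strand, chr7:78895808-78896107, where it begins 121 bases before the start site, and chr7:78895677-78895976, where it begins at base 11 after it. A match is a description of letters, and the count data hold no measure of binding.

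Per transcript length the 10 genes spanned a wide range of levels. In TPM (counts per exonic length, scaled to the library), averaged over the 12 libraries, Bax was highest at 64.4 ± 6.56 TPM, followed by Trp53inp1 at 53.2 ± 9.94, Mdm2 at 47.0 ± 6.84, Ccng1 at 32.4 ± 4.06 and Aen at 16.2 ± 2.76 TPM (SD, n = 12 libraries). Below them came Bbc3 at 9.75 ± 2.05, Phlda3 at 5.77 ± 1.40, Sesn2 at 4.91 ± 0.656, Cdkn1a at 4.61 ± 1.04 and Eda2r at 1.56 ± 0.320 TPM (SD, n = 12 libraries). The ranges of neighbours in this order overlapped, except between Ccng1 and Aen and between Cdkn1a and Eda2r. Cdkn1a, the classical arrest target, was among the lowest of the 10: 67.4% of the 37826 genes detected in any library had a lower mean TPM than Cdkn1a, against 93.4% for Bax.

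**Figure D1:**
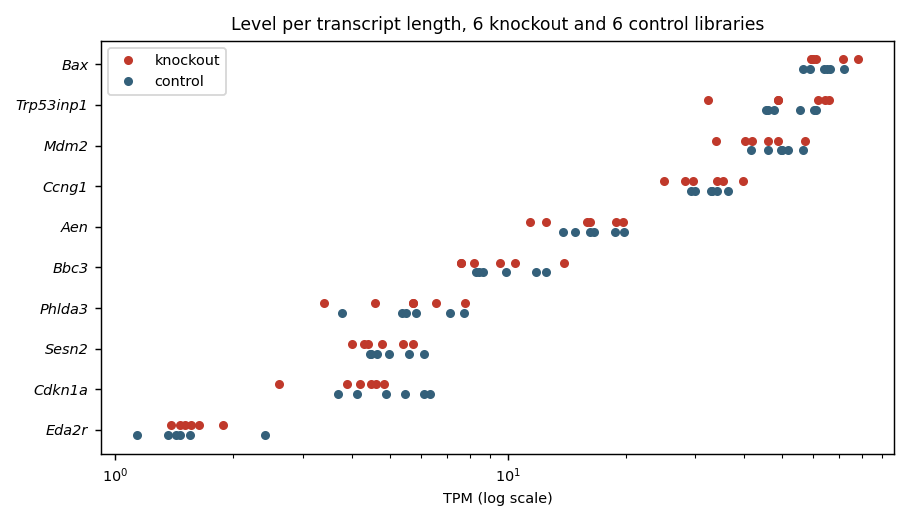
Level of each p53 target gene in TPM on a log axis, genes ordered by their mean, with 1 point for each of the 6 knockout libraries (upper row of a gene, red) and 6 control libraries (lower row, blue). The ranges of the genotypes overlap for all 10 genes, which run from 56.5 to 78.3 TPM for Bax down to 1.14 to 2.41 TPM for Eda2r.

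Whether the p53 response differed between knockout and control cortex was asked first in the sums of the rostral and caudal counts of each titled embryo, then in each part of the cortex. None of the 10 genes was called, meaning a Benjamini-Hochberg adjusted p under 0.05 by edgeR's quasi-likelihood test over all genes. In the sums 0 of 10 were called against 0.0317% of the 18937 genes tested, and 0 had an unadjusted p under 0.05 by edgeR or DESeq2 against 3.4% of all genes by edgeR. In rostral libraries 0 were called against 0% of all genes (4 genes by DESeq2), and 0 had an unadjusted p under 0.05 by either tool, against 1.05% of all genes by edgeR. In caudal libraries 0 were called against 0.0472%, and 1, Trp53inp1, had an unadjusted p under 0.05 by both tools, against 5.13% of all genes by edgeR. Over all 12 libraries none of the 10 had knockout and control apart without overlap, against 0.115% of the 14795 genes at a mean of at least 1 CPM. The median log2 fold change of the 10 was 0.05 in the sums, 0.03 in rostral and 0.03 in caudal libraries, where that of all tested genes was -0.00067, 0.00089 and -0.0012. The median size of the change regardless of sign was 0.065, 0.085 and 0.066 for the 10 against 0.075, 0.099 and 0.11 for all genes. Taking the sums as independent samples, the 95% intervals of the 10 fold changes lay between 0.695 (lower end for Cdkn1a) and 1.35 (upper end for Phlda3). They were wider in the parts, from 0.635 to 1.81 in rostral and from 0.474 to 1.63 in caudal libraries. The sums depend on the titles, which Xist and Y-linked genes went against for 5 embryos. Same-numbered libraries deviated in opposite directions (correlations of -0.71 to -0.234 over 1000 genes), which narrows the spread of their sums. The intervals of the sums may therefore be too narrow.

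**Figure D2:**
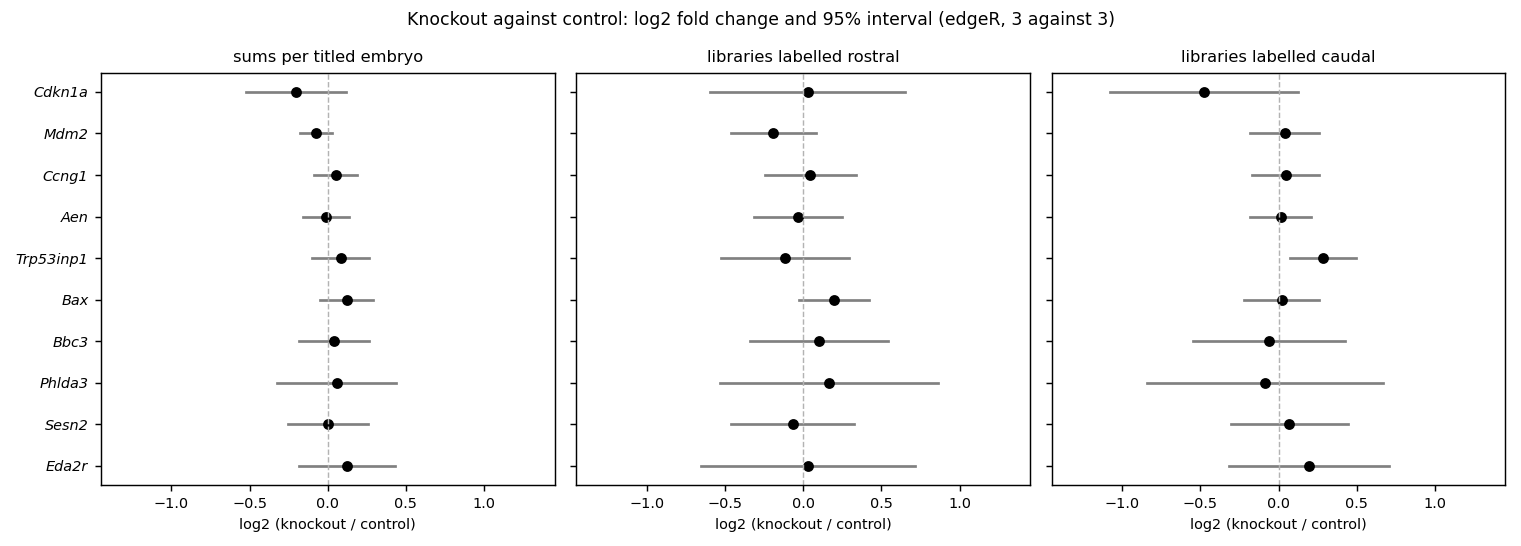
Log2 fold change of knockout over control for each p53 target gene (points) with its 95% interval (lines) from edgeR, in the sums per titled embryo, in libraries labelled rostral and in libraries labelled caudal, 3 against 3 in each. All intervals cover 0 except that of Trp53inp1 in caudal libraries, from 0.08 to 0.49.

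Genes of cell cycle arrest and of the feedback on p53 come first. Cdkn1a (ENSMUSG00000023067.15, GRCm39 chr17:29309950-29319701) encodes p21, the inhibitor of cyclin-dependent kinases through which p53 arrests the cycle. It was at 4.83, 4.98 and 7.18 CPM in knockout rostral 5, 2 and 7 against 5.53, 7.35 and 4.29 CPM in control rostral 1, 3 and 9. Caudal values were 5.27, 5.09 and 3.01 CPM in knockout caudal 5, 2 and 7 against 4.82, 7.08 and 6.80 CPM in control caudal 1, 3 and 9. The genotypes overlapped in both parts, with the lowest library of all, knockout caudal 7, lying well below the other 2 of its group. In the sums the 3 knockout values were close together at 5.06, 5.03 and 5.19 CPM (titled 5, 2 and 7), against 5.18, 7.21 and 5.53 CPM in control (titled 1, 3 and 9). The log2 fold change was -0.21 (SE 0.14, adjusted p = 0.9999 by edgeR, n = 3 each) in the sums, 0.03 (SE 0.26) in rostral libraries, where it was -0.018 with library size alone, and -0.48 (SE 0.26, adjusted p = 0.99999, unadjusted p = 0.102 by edgeR) in caudal ones. Without control embryo 3 the value in the sums was -0.049, without knockout caudal 7 the caudal one was -0.27, and without knockout rostral 7 the rostral one was -0.20. A lower level of a transcript in these bulk samples can come from fewer cells of a type or from less RNA per cell, which cannot be told apart.

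Mdm2 (ENSMUSG00000020184.16, chr10:117524780-117546663), the ligase that marks p53 for degradation, was at 75.9, 66.6 and 72.0 CPM in knockout rostral 5, 2 and 7 against 80.7, 76.4 and 93.6 CPM in control rostral 1, 3 and 9. All 3 knockout libraries lay below the 3 controls, narrowly so for knockout 5 and control 3. Caudal libraries overlapped, at 77.5, 90.5 and 80.2 CPM in knockout 5, 2 and 7 against 83.5, 85.8 and 74.1 CPM in control 1, 3 and 9. The sums did not overlap either, at 76.8, 78.0 and 75.9 CPM in knockout 5, 2 and 7 against 82.1, 81.3 and 84.0 CPM in control 1, 3 and 9. Mdm2 was the 1 member of 10 with knockout below control throughout in rostral libraries and in the sums, where 4.82% and 4.88% of the 14795 genes had that pattern (6.07% and 7.91% in either direction). The log2 fold change was -0.19 (SE 0.11, adjusted p = 0.99999 by edgeR) in rostral libraries, 0.04 (SE 0.09) in caudal libraries and -0.08 (SE 0.05, adjusted p = 0.9999 by edgeR) in the sums, with an interval of the fold from 0.883 to 1.02. Without the 2 control libraries holding transcripts of both sexes, which leaves 1 rostral control assumed to vary like the knockout group, the rostral value was -0.39 for Mdm2 and 0.40 for Cdkn1a, with 0 of the 10 called. Without control rostral 9 the rostral value of Mdm2 was -0.079.

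Ccng1 (ENSMUSG00000020326.8, chr11:40639379-40646138) encodes a cyclin G that recruits a phosphatase to Mdm2. It ran from 33.8 to 43.7 CPM over the 6 knockout libraries (median 37.5) and from 33.6 to 41.7 CPM over the 6 control libraries (median 38.2). Its log2 fold change in the sums was 0.05 (SE 0.06, fold interval 0.942 to 1.14). Both ends of its range over all 12 libraries were rostral, at knockout rostral 2 and control rostral 9.

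The genes of cell death overlapped between genotypes in both parts. Bax (ENSMUSG00000003873.12, chr7:45111121-45116322) encodes the pore-forming protein of the mitochondrial outer membrane that commits cells to apoptosis. It was at 39.9, 35.2 and 40.1 CPM in knockout rostral 5, 2 and 7 against 36.2, 34.2 and 32.8 CPM in control rostral 1, 3 and 9. Caudal values were 36.0, 29.3 and 30.3 CPM in knockout caudal 5, 2 and 7 against 33.7, 28.9 and 32.5 CPM in control caudal 1, 3 and 9. The 2 highest values were those of knockout rostral 7 and 5, and knockout rostral 2 lay among the controls. The log2 fold change was 0.20 (SE 0.09, unadjusted p = 0.0735, adjusted p = 0.99999 by edgeR) in rostral, 0.02 (SE 0.10) in caudal libraries and 0.12 (SE 0.08, fold interval 0.965 to 1.22) in the sums. Within their groups the highest values in CPM, of knockout rostral 7 and knockout caudal 5, belonged to the 2 libraries with the largest mitochondrial share. The order depended on the unit: in TPM knockout rostral 7 was lowest of its group, at 61.0 against 78.3 and 71.4 TPM in 5 and 2. Knockout caudal 5 stood at 60.2 against 59.8 and 59.3 TPM in 2 and 7. The shift was not particular to Bax, as the scaling to TPM acts on all genes of a library alike. Ccng1 was at 36.6 CPM in knockout rostral 7 and 33.8 CPM in knockout rostral 5, but at 25.0 and 29.7 TPM. Without titled embryos 7 and 5, which leaves 1 knockout sum assumed to vary like the controls, the value in the sums was -0.026. The part of RNA quality in this was not tested. Counts of Bax are uncertain, because the predicted gene Gm45808 overlaps it on the same strand and was given 246.5 to 369.5 counts per library, and fragments in shared exons were split between such genes.

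Bbc3 (ENSMUSG00000002083.14, chr7:16042318-16052130) encodes PUMA, a BH3-only protein that frees Bax from its inhibitors. It was at 7.16, 9.21 and 7.28 CPM in knockout rostral 5, 2 and 7 against 8.0, 8.68 and 6.00 CPM in control rostral 1, 3 and 9. In caudal libraries it was at 7.73, 5.02 and 5.21 CPM in knockout caudal 5, 2 and 7 against 5.79, 5.83 and 7.34 CPM in control caudal 1, 3 and 9. The genotypes overlapped in both parts, and the means over all 6 libraries were 6.94 ± 1.59 CPM in knockout and 6.94 ± 1.25 CPM in control (SD, n = 6 libraries). Its log2 fold change in the sums was 0.04 (SE 0.10, fold interval 0.881 to 1.20). Aen (ENSMUSG00000030609.19, chr7:78545602-78560957), an apoptosis-enhancing nuclease, ran from 27.6 to 37.0 CPM in knockout (median 29.6) and from 28.0 to 36.7 CPM in control libraries (median 31.1), with a log2 fold change of -0.01 (SE 0.06, fold interval 0.896 to 1.10) in the sums.

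Of the genes of stress signalling and survival, Trp53inp1 (ENSMUSG00000028211.12, chr4:11156431-11174379), a nuclear protein that promotes p53 phosphorylation and autophagy, came closest to a difference. In caudal libraries it was at 120, 133 and 135 CPM in knockout 5, 2 and 7 against 118, 101 and 103 CPM in control 1, 3 and 9. Every knockout caudal library was above every control one, narrowly so for knockout 5 and control 1, a pattern of 1 member of 10 and of 4.18% of the 14795 genes (10.1% in either direction). The log2 fold change there was 0.29 (SE 0.09, unadjusted p = 0.0140, adjusted p = 0.809 by edgeR), a fold of 1.22 with an interval from 1.05 to 1.41, which ranked 293 among the 16964 genes tested by p. In rostral libraries the values spread over a wider range, at 129, 99.1 and 87.5 CPM in knockout 5, 2 and 7 against 126, 97.4 and 127 CPM in control 1, 3 and 9, and the log2 fold change was -0.12 (SE 0.17). The difference between the parts is given with the interaction below.

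Sesn2 (ENSMUSG00000028893.9, chr4:132219343-132237812) encodes a sestrin that restrains mTORC1 and is also known to be raised by the integrated stress response. It ran from 4.96 to 6.18 CPM in knockout (median 5.76) and from 5.05 to 6.76 CPM in control libraries (median 5.65), and its log2 fold change in the sums was 0.00037 (SE 0.11, fold interval 0.838 to 1.19), and -0.0030 with DESeq2 size factors. On the log2(CPM + 1) scale its spread over the 12 libraries (root mean square deviation) was 0.117, and 7.12% of the 3147 genes with a mean CPM within 2-fold of its own had a smaller one. Trp53inp1 stood at the other end of the 10, with a deviation of 0.199 and 82.1% of 3339 genes of like level below it. Phlda3 (ENSMUSG00000041801.6, chr1:135693857-135696874), a repressor of Akt signalling, ran from 1.72 to 4.28 CPM in knockout (median 3.10) and from 1.93 to 3.84 CPM in control (median 2.95). Eda2r (ENSMUSG00000034457.11, chrX:96377446-96420822), a death-domain receptor of the TNF receptor family on the X chromosome, ran from 2.64 to 3.71 CPM in knockout (median 3.21) and from 2.18 to 4.64 CPM in control (median 2.74). Their log2 fold changes in the sums were 0.06 (SE 0.17, fold interval 0.799 to 1.35) and 0.12 (SE 0.13, fold interval 0.880 to 1.34). These 2 genes had 44 to 120 and 59 to 117 counts per library, and Cdkn1a 77 to 201, against 2452 to 3647 for Trp53inp1, so counting error takes a larger part of their spread.

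**Figure D3:**
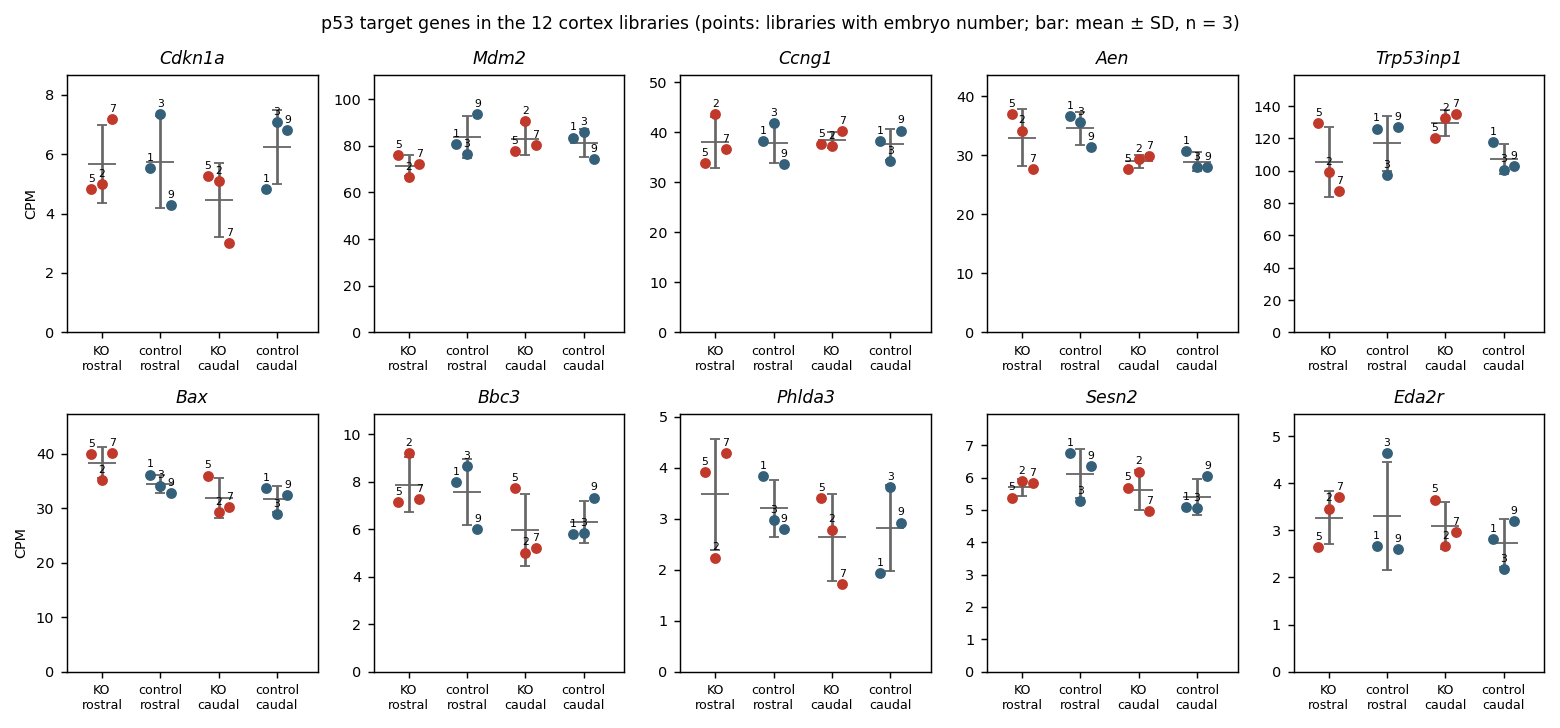
CPM of each p53 target gene in the 12 libraries, grouped as knockout rostral, control rostral, knockout caudal and control caudal (points, with titled embryo numbers), with the mean and SD of each group of 3. Mdm2 in rostral and Trp53inp1 in caudal libraries are the 2 cases in which the genotypes do not overlap within a part of the cortex, and Cdkn1a and Phlda3 have their lowest value in knockout caudal 7.

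The caudal and rostral parts, as labelled, were compared in 1 fit of the 12 libraries without a block for the embryo. The libraries of embryos 2 and 3 entered under their labels, although their Nr2f1 levels run against them, so each sign below rests on labels that are in doubt. No gene of the series was called by edgeR (0%) and 83 were by DESeq2, with 0 of the 10 among them by either tool. Unadjusted p-values under 0.05 were found by both tools for 2 of the 10, Aen and Bax, against 9.95% of the 17734 genes tested by edgeR. Aen was at 27.6, 29.3 and 29.9 CPM in knockout caudal 5, 2 and 7 against 37.0, 34.2 and 27.6 CPM in knockout rostral 5, 2 and 7. In control it was at 30.7, 28.0 and 28.0 CPM in caudal 1, 3 and 9 against 36.7, 35.6 and 31.4 CPM in rostral 1, 3 and 9. All control caudal libraries were below all control rostral ones, a pattern of 1 member of 10 and of 5.72% of genes (8.17% in either direction), and in knockout 1 rostral library lay as low as the caudal ones. The log2 fold change of caudal over rostral was -0.19 for Aen (SE 0.07, unadjusted p = 0.0202, adjusted p = 0.449 by edgeR) and -0.17 for Bax (SE 0.07, unadjusted p = 0.0323, adjusted p = 0.463 by edgeR). Bax averaged 31.8 ± 2.77 CPM in caudal and 36.4 ± 3.01 CPM in rostral libraries (SD, n = 6 each), and Bbc3, with a log2 fold change of -0.30 (SE 0.14, unadjusted p = 0.0614, adjusted p = 0.523 by edgeR), 6.15 ± 1.12 CPM in caudal and 7.72 ± 1.16 CPM in rostral libraries (SD, n = 6 each). In all, 7 of the 10 had a negative sign, with a median of -0.11 against 0.00080 for all genes. Mdm2, Ccng1 and Trp53inp1 had a positive one, of 0.11, 0.03 and 0.11. In knockout alone, Mdm2 was higher in every caudal than in every rostral library, as were 7.02% of genes (13.3% in either direction). Over both genotypes none of the 10 had caudal and rostral libraries apart, against 0.338% of genes. With the titled embryo as a replicate block 0 of the 10 were called as well, Aen had a log2 fold change of -0.19 and Bax of -0.17.

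The interaction, the difference of the caudal over rostral log2 fold change between knockout and control, was called for no gene by edgeR (0%) and for 0 of the 10, of which 0 also had an unadjusted p under 0.05 by edgeR or DESeq2 against 2.74% of all genes by edgeR. It was furthest from 0 for Cdkn1a at -0.50 (SE 0.39) and Trp53inp1 at 0.41 (SE 0.20, unadjusted p = 0.0716, adjusted p = 0.998 by edgeR), so the caudal difference of Trp53inp1 between genotypes is not shown to differ from the rostral one. Intervals were wide, from a fold of 0.392 for Cdkn1a to 1.96 for Eda2r.

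**Figure D4:**
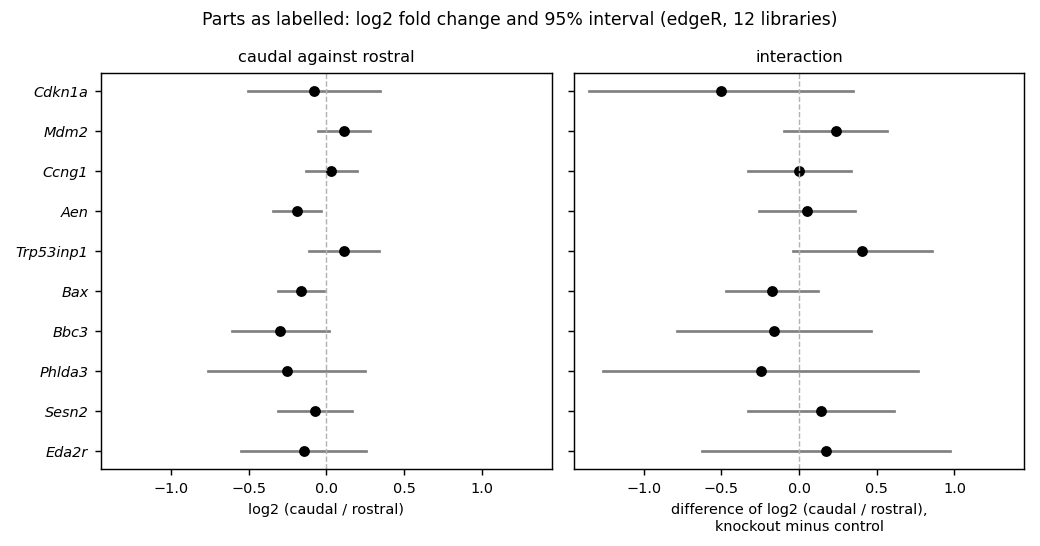
Log2 fold change of caudal over rostral libraries for each p53 target gene (left) and its difference between knockout and control (right), with 95% intervals from edgeR on 12 libraries. On the left the intervals of Aen (-0.34 to -0.04) and Bax (-0.31 to -0.02) leave out 0, and on the right every interval covers it.

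No gene of the rest of the pathway was called in any of the 5 comparisons, in lists drawn up by role. Of p53 itself and its regulators, 11 of 12 genes were tested in the sums, with 0 called, 8 negative and a median log2 fold change of -0.05. Trp53 stood at 85.5 ± 8.99 CPM in knockout and 83.8 ± 7.97 CPM in control libraries (SD, n = 6 each). Atr, a kinase that signals replication stress, had a log2 fold change of -0.10 (SE 0.06) and Usp7, a deubiquitinase of Mdm2 and p53, of -0.09 (SE 0.06). Of 30 further p53 targets 28 were tested, with 0 called, 12 positive and 16 negative, and a median of -0.0066. Of 14 apoptosis effectors, all tested, 0 were called, 7 were positive and 7 negative. Bmf and Bad, BH3-only proteins, had log2 fold changes of -0.16 (SE 0.08) and 0.11 (SE 0.07). Of 8 apoptosis inhibitors 0 were called and 5 were negative, with Mcl1, a Bcl-2 relative that keeps neural progenitors alive, at -0.07 (SE 0.05) and Birc6, a large inhibitor-of-apoptosis protein, at -0.12 (SE 0.11). Of 14 genes of the integrated stress response 13 were tested, 0 were called and 8 were negative, with the transcription factor gene Atf4 at -0.13 (SE 0.06) and Ddit4, an inhibitor of mTORC1 that p53 and other stresses induce, at 0.24 (SE 0.08, unadjusted p = 0.0183, adjusted p = 0.9999 by edgeR).

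Plk2, a kinase gene that p53 and neuronal activity both induce, came nearest to a call among these lists. It was at 78.7, 89.9 and 105 CPM in knockout rostral against 102, 102 and 128 CPM in control rostral libraries (each from low to high), and at 93.8, 96.1 and 105 CPM in knockout caudal against 152, 165 and 173 CPM in control caudal libraries. The caudal groups did not overlap, with every knockout library lower, as for 5.96% of the 14795 genes (10.1% in either direction), whereas the rostral ones did. The log2 fold change was -0.51 (SE 0.07, adjusted p = 0.109 by edgeR) in the sums and -0.72 (SE 0.08, adjusted p = 0.0621 by edgeR) in caudal libraries. Plk3, of the same family, was at -0.25 (SE 0.14) in the sums.

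The genes also differed in how far single libraries lay apart in CPM, the unit of the values that follow. The highest library stood 2.49-fold above the lowest for Phlda3, 2.45-fold for Cdkn1a, 2.13-fold for Eda2r and 1.84-fold for Bbc3, and 1.30-fold to 1.54-fold for the other 6. Knockout caudal 7 held the lowest value of 3 genes (Cdkn1a, Phlda3 and Sesn2) and the highest of Trp53inp1. Knockout rostral 7, with the largest mitochondrial share, held the highest value of 2 genes (Bax and Phlda3) and the lowest of 2 others (Aen and Trp53inp1). Summed over the 10 genes the level was 292 to 341 CPM in knockout and 301 to 345 CPM in control libraries. Trp53inp1 and Mdm2, with means of 115 and 79.7 CPM over the 12 libraries, made up most of this sum, which hardly registers the genes of low level. The genes whose centred log2(CPM + 1) lay closest to that of Cdkn1a over the 12 libraries, among 11608 genes at a mean of at least 5 CPM, were Serpine2, Stom and Esyt1, with root mean square differences of 0.144, 0.157 and 0.161, against a deviation of Cdkn1a itself of 0.296.

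Marker genes of other cell types are given beside the values of the p53 targets. Among all marker lists 2 genes were called, both of oligodendrocyte precursors and both lower in knockout in the sums: Olig1 with a log2 fold change of -1.26 (SE 0.12, adjusted p = 0.0084 by edgeR) and Olig2 with -1.33 (SE 0.12, adjusted p = 0.00752 by edgeR). Of the 6 markers of that list 3 had a negative sign in rostral libraries (median 0.05) and 6 in caudal ones (median -0.82). They summed to 54.2 to 99.5 CPM in knockout rostral against 85.4 to 93.8 CPM in control rostral, and to 40.4 to 70.8 CPM in knockout caudal against 92.1 to 135 CPM in control caudal libraries. Some lists had mostly the same sign in both parts, with 7 of 9 rostral and 9 of 9 caudal signs negative for GABAergic interneurons, 7 of 8 and 7 of 8 negative for ventral forebrain and striatum, and 6 of 6 and 4 of 6 positive for astrocytes. Others had mostly opposite signs. In rostral libraries, knockout against control, 10 of 10 microglia markers, 8 of 8 endothelial and 6 of 6 mural cell markers had a positive sign (medians 0.60, 0.27 and 0.44). In caudal libraries 8 of 10, 7 of 8 and 5 of 6 had a negative one (medians -0.28, -0.47 and -0.15), with 0 called in either part by edgeR. Of all genes tested, 49.8% had a negative sign in rostral and 50.4% in caudal libraries. Markers of a list need not vary independently, so their signs are not separate results. The summed levels of these lists overlapped. Microglia markers were at 88.7 to 236 CPM in knockout rostral against 83.5 to 135 CPM in control rostral libraries, and at 126 to 162 CPM in knockout caudal against 154 to 198 CPM in control caudal libraries. Endothelial markers were at 153 to 221 CPM in knockout rostral against 108 to 191 CPM in control rostral, and at 109 to 172 CPM in knockout caudal against 141 to 224 CPM in control caudal libraries. Mural cell markers were at 82.0 to 223 CPM in knockout rostral against 106 to 127 CPM in control rostral, and at 83.8 to 145 CPM in knockout caudal against 120 to 148 CPM in control caudal libraries. The median sums in rostral libraries, knockout against control, were 101 and 88.6 CPM for microglia, 194 and 185 CPM for endothelial and 133 and 117 CPM for mural cell markers. The sums of 236 CPM for microglia and 223 CPM for mural cells were thus each those of 1 library. Caudal medians were 130 and 157, 165 and 156, and 141 and 132 CPM. Markers of cycling cells had a negative sign in 12 of 12 cases in rostral (median -0.26) and a positive one in 12 of 12 in caudal libraries (median 0.15), with 0 called. They summed to 657 to 1190 CPM in knockout rostral against 890 to 1575 CPM in control rostral, and to 996 to 1737 CPM in knockout caudal against 983 to 1336 CPM in control caudal libraries. The part of these cells in the values of the p53 targets was not tested.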

How the data were processed

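Messenger RNA of 12 libraries was sequenced from both fragment ends. STAR 2.7.8a and GRCm39 are the aligner and build, per the submitters' processing notes. Per the file headers, the authors counted fragments with featureCounts 2.0.3 on GENCODE release 28, on the reverse strand, with multimapping and overlapping fragments shared as fractions, so the deposited values are estimated counts that need not be whole (21.6% to 23.9% of detected genes per library). Fractional sharing can move counts between copies and overlapping genes.

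Here counts were rounded and tested with edgeR 4.0.16 (TMM, filterByExpr, robust quasi-likelihood, in R 4.3.3) over all genes, with Benjamini-Hochberg adjustment and a threshold of 0.05. CPM was taken per total count and TPM per total and annotated exon length. The sums add the 2 libraries of a titled embryo and treat the sums as independent. The caudal against rostral and interaction fits use 12 libraries with no replicate block. Alternatives were library size or DESeq2 1.42.0 size factors, DESeq2's Wald test, no filter, limma 3.58.1 voom, blocks and left-out libraries. The fits were tested on simulated data with independent samples. Their spread followed the trend over level estimated from these same samples, without the spread particular to each gene. As opposite deviations narrow the spread of the sums, the share for the sums may be too high. The shares pool genes of many levels and need not hold for the members of low count. Of genes given a 1.5-fold change, 65.7% were called in the sums, 20.9% in rostral and 22.4% in caudal libraries. For caudal over rostral it was 58.2%, and for the interaction 2.99%, so changes of this size could be missed. No 2 libraries of a group agreed within counting noise.

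The 10 genes and all lists were chosen with earlier results of these data known. All 10 are named, as are Egfr and Trp53, and of each other pathway list, where no gene was called, the 2 with the smallest p in the sums. Genes like Cdkn1a are the 3 with the smallest root mean square difference. Egfr, Xist, Y-linked genes and Nr2f1 check the labels. Promoter sequences are from RefSeq. Depth of 25223733 to 30383672 counts per library limits the genes of lowest level most. Intervals are at 95%.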

Additional observations from a re-analysis of the deposited data

How the results depend on the processing

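Under no alternative was any of the 10 genes called: all 66 recomputed counts were 0, and the smallest adjusted p of a member was 0.181 (Aen, caudal over rostral). Of 660 recomputed log2 fold changes of members 593 kept their sign, and the 67 that did not came from values of at most 0.25 in size. Against 6 genes of the series called in the sums, DESeq2's Wald test called 32, edgeR without a filter on low counts 110, and edgeR without the embryos of the 2 libraries of highest mitochondrial share 3. In rostral libraries, against 0, these were 4 by DESeq2 and 2 without the filter. In caudal libraries, against 8, they were 77, 57 and, without the high mitochondrial library, 2. For caudal over rostral, against 0, they were 83 by DESeq2 and 2 without the filter. Leaving out 1 replicate gave 3 to 21 genes in the sums, 0 in rostral, 2 to 8 in caudal libraries, 0 to 6 for caudal over rostral and 0 to 6 for the interaction, and 0 of the 10 in each. Fewer samples enter where libraries are left out. The cause of the other differences was not tested.

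Over 1000 genes, the deviations of same-numbered libraries from their group means correlated at -0.71 to -0.234, with 0 of 6 above 0.1, and those of differently numbered ones at -0.233 to 0.75, with 8 of 12 above 0.1. Libraries of 1 titled embryo thus deviated in opposite directions. Deviations within a group sum to 0, so the positive values of differently numbered libraries are not a separate observation from the negative ones. The titles were not used as a block in the main fits. The sums do add libraries by title, and their spread is narrowed by these opposite deviations. With the titled embryo as a replicate block 0 genes were called for caudal over rostral and 0 for the interaction, and 0 members. The number before the embryo number in the titles, as a block, gave 8 genes in the sums, 0 in rostral and 6 in caudal libraries.

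Signs of log2 fold changes turned as follows. Sesn2 in the sums was -0.0030 with DESeq2 size factors, -0.0029 by DESeq2, -0.025 with library size alone and -0.12 without control embryos 1 and 3, where Aen was 0.060. With library size alone, Cdkn1a was -0.018 and Eda2r -0.014 in rostral libraries. Without the control libraries with transcripts of both sexes, Aen was 0.066 in rostral libraries, Cdkn1a 0.11 and Eda2r 0.0010 for caudal over rostral, and Ccng1 -0.12, Aen -0.043 and Eda2r -0.12 for the interaction. Without the libraries of highest mitochondrial share, chosen after seeing the data, Cdkn1a was -0.20, Aen 0.067, Phlda3 -0.030 and Eda2r -0.087 in rostral libraries, Bax -0.065 in caudal libraries, Aen -0.012 for the interaction, and Aen 0.011, Bax -0.026 and Phlda3 -0.27 in the sums. Leaving out 1 replicate also turned signs. These ranges were -0.048 to 0.026 for Aen, -0.0057 to 0.10 for Bbc3, -0.086 to 0.19 for Phlda3 and -0.074 to 0.065 for Sesn2 in the sums. Ranges were -0.20 to 0.24 for Cdkn1a, -0.057 to 0.14 for Ccng1, -0.11 to 0.067 for Aen, -0.024 to 0.20 for Bbc3, -0.030 to 0.41 for Phlda3 and -0.11 to 0.34 for Eda2r in rostral libraries. Ranges were -0.024 to 0.10 for Mdm2, -0.011 to 0.11 for Ccng1, -0.013 to 0.059 for Aen, -0.065 to 0.082 for Bax, -0.27 to 0.066 for Bbc3, -0.31 to 0.14 for Phlda3 and -0.0012 to 0.16 for Sesn2 in caudal libraries. Ranges were -0.20 to 0.14 for Cdkn1a, -0.022 to 0.095 for Ccng1 and -0.28 to 0.072 for Eda2r for caudal over rostral. Ranges were -0.12 to 0.13 for Ccng1, -0.082 to 0.18 for Aen, -0.44 to 0.10 for Bbc3, -0.60 to 0.17 for Phlda3 and -0.27 to 0.44 for Eda2r for the interaction.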
